A study of Mus musculus with 6 samples.

Results

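The genes of the switch that lets a cell pass from the growth phase G1 into DNA synthesis were followed in the mouse aortic valve: the cyclin-dependent kinase (CDK) inhibitors Cdkn1a, Cdkn1b, Cdkn2a, Cdkn2b and Cdkn2c, the tumour suppressors Trp53 and Rb1, and the D cyclins Ccnd1, Ccnd2 and Ccnd3. They were chosen by symbol, and all 10 of the 10 symbols were found once among the 46983 genes of the gene table. Aortic valves were taken from wild-type C57BL/6J mice either 2 days after birth (postnatal day 2, PND2) or aged 4 months, and 3 RNA-seq libraries were made per age, each from the pooled valves of 5 to 6 mice. The labels name no treatment. A pooled library averages its mice, so the p-values below measure the spread between pools, and in such bulk tissue fewer cells of a type and less RNA per cell cannot be told apart.

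The products of these genes meet at one switch. D cyclins activate CDK4 and CDK6, which phosphorylate the retinoblastoma protein encoded by Rb1 and thereby release E2F transcription factors that drive S-phase genes. INK4 inhibitors (p16Ink4a and p15Ink4b from Cdkn2a and Cdkn2b, p18Ink4c from Cdkn2c) bind CDK4 and CDK6 themselves, whereas the CIP/KIP inhibitors p21 (Cdkn1a) and p27 (Cdkn1b) bind cyclin-CDK complexes, above all those of CDK2. p53, encoded by Trp53, activates Cdkn1a after DNA damage and other stress, and Cdkn2a also encodes p19Arf, which protects p53 from Mdm2. Cells of the postnatal valve still divide as the leaflets grow, and those of the adult valve are largely quiescent.

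Of the 10 genes, 4 were higher at 4 months (Cdkn1a, Cdkn1b, Cdkn2a and Cdkn2b), 1 was lower (Ccnd3), and 5 did not pass the test (Cdkn2c, Trp53, Rb1, Ccnd1 and Ccnd2). The test was limma on log2(RPKM + 0.1), 2-sided, with Benjamini-Hochberg adjustment over the 25903 genes that reached 0.1 RPKM in 3 libraries or more, and every one of the 10 genes passed that filter. RPKM is the number of reads scaled by exonic length and by the total of the library. The exonic length takes in every annotated exon, used or not, so levels can be compared between genes only roughly. For Ccnd3 at PND2 the mean gene value was 38.7 RPKM, while a coding exon shared by many of its transcripts had a mean of 136. Across all tested genes 35.8% were called at an adjusted p under 0.05, 14.7% as higher and 21.1% as lower at 4 months. For 5 of the 10 genes every library of 4 months was above every PND2 library and for 1 every one was below, which held for 20.0% and 29.9% of all tested genes.

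Cdkn2a is a gene whose sequence has to be seen for its values to be read. On chromosome 4 (chr4:89274471-89294653, minus strand, GRCm38) its 2 products start from different first exons that are spliced to the same base of exon 2, and a gene value adds both. The coding sequence on each side of that junction, from the GENCODE M21 transcripts of GRCm38, is shown with exon 2 in capitals.
p16Ink4a: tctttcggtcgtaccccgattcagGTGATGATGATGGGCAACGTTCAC
p19Arf: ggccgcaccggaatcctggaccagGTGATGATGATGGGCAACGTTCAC
The 24 capital bases are the same in both. The p16Ink4a first exon carries 126 coding bases, which leaves 0 bases over, and that of p19Arf carries 190, which leaves 1 base over, so exon 2 is read in another frame and the products are unrelated proteins.

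Cdkn1a likewise has more than one start, and the promoters of its starts and of both Cdkn2a products are printed because reads of their first exons are compared below. The 4 windows of 150 bases come from RefSeq promoters (GRCm38.p6), run 5′ to 3′ on the strand of the gene and end before the first annotated exon base. Capitals mark a p53 response element decamer in the first and an E2F motif in the last.
Cdkn1a upstream start, chr17:29090826-29090975, plus strand: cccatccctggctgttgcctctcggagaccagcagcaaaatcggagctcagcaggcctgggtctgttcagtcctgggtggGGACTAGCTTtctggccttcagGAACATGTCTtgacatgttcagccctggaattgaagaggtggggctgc
Cdkn1a downstream start, chr17:29093619-29093768, plus strand: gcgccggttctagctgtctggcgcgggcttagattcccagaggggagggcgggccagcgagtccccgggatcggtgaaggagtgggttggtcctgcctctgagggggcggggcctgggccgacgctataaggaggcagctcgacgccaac
p16Ink4a start, chr4:89282193-89282342, minus strand: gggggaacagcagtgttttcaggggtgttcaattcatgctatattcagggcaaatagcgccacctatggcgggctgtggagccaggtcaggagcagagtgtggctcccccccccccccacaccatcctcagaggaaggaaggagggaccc
p19Arf start, chr4:89294654-89294803, minus strand: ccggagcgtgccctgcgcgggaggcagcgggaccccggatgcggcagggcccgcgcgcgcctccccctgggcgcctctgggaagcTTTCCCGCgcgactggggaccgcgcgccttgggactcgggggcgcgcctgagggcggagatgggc
Promoters were found for 7 of the 10 genes, 11 in all, and motifs were searched on both strands of the 250 bases before the start. The upstream Cdkn1a start had 2 p53 decamers, beginning 73 and 51 bases before it, and the downstream start had none. The Trp53 start also had 1 decamer, beginning 75 bases before it, and the other 9 promoters had none. Of all 32851 promoters 7.13% held such a decamer. The E2F motif (TTTCCCGC, TTTCGCGC, TTTGCCGC or TTTGGCGC) stood 99 bases before the p19Arf start and in 1.86% of all promoters. A match is a description of the letters and not a measure of binding.

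Library totals, derived from the RPKM values, ran from 23810507 to 38994657, so 1 read on 1 kb of exon was worth 0.0256 to 0.0420 RPKM. Of the reads on genes 5.44 to 9.60% were mitochondrial. Pearson's r of log2 values across tested genes was 0.961 to 0.970 between libraries of an age and 0.911 to 0.922 between ages, as a description. Of 9273 genes called, 3810 were higher and 5463 lower at 4 months, and the median log2 fold change of all tested genes was -0.14. Median scaling shifted each library by the median of its log2 deviations from the gene means. The median log2 fold change was then -0.02, and 4601 genes were called higher and 4129 lower. None of the 10 genes changed its call with that scaling.

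Markers of several cell types moved with age. All 7 valve interstitial markers and all 5 endothelial markers had reads in every library, and their summed RPKM ran from 5955 to 6395 at PND2 and from 7652 to 9662 at 4 months for the interstitial list, and from 286 to 387 and from 179 to 196 for the endothelial list. Of the interstitial markers 2 were higher (Dcn and Lum), 3 lower (Col1a1, Col3a1 and Postn) and 2 did not pass the test (median log2 fold change 0.03). The mean of Dcn alone went from 1054 to 3961 RPKM. The 4 smooth muscle markers summed to 2992 to 3316 at PND2 and 6942 to 11373 at 4 months. Cardiomyocyte markers, all 5 with reads in every library, summed to 6678 to 8613 and 3056 to 4842, so the valve samples held muscle RNA at both ages. The 5 macrophage markers summed to 129 to 161 and 276 to 348. The 5 adipocyte markers summed to 63.7 to 147 and 122 to 436, with 2 of them (Cidec and Lep) at 0 in the PND2 libraries and the highest sum in replicate 2 of 4 months. Fabp4, also expressed by endothelial cells, made up 147, 63.7 and 77.9 RPKM of the PND2 sums and did not pass the test (log2 fold change -0.05), while the other 4 (Adipoq, Plin1, Cidec and Lep) were higher at 4 months. The 5 neutrophil markers summed to 24.5 to 31.0 and 0.498 to 1.11, with Ngp at 0 in all 3 libraries of 4 months. Sums of the other lists were 0.579 to 1.29 and 1.86 to 3.08 for 4 lymphocyte markers, 2.395 to 4.50 and 0.980 to 2.69 for 3 erythroid, 5.12 to 11.9 and 7.85 to 15.9 for 3 Schwann cell, and 37.9 to 78.3 and 22.4 to 41.4 for 3 melanocyte markers. These changes stand beside every difference below, and their part in it was not tested.

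**Figure D1:**
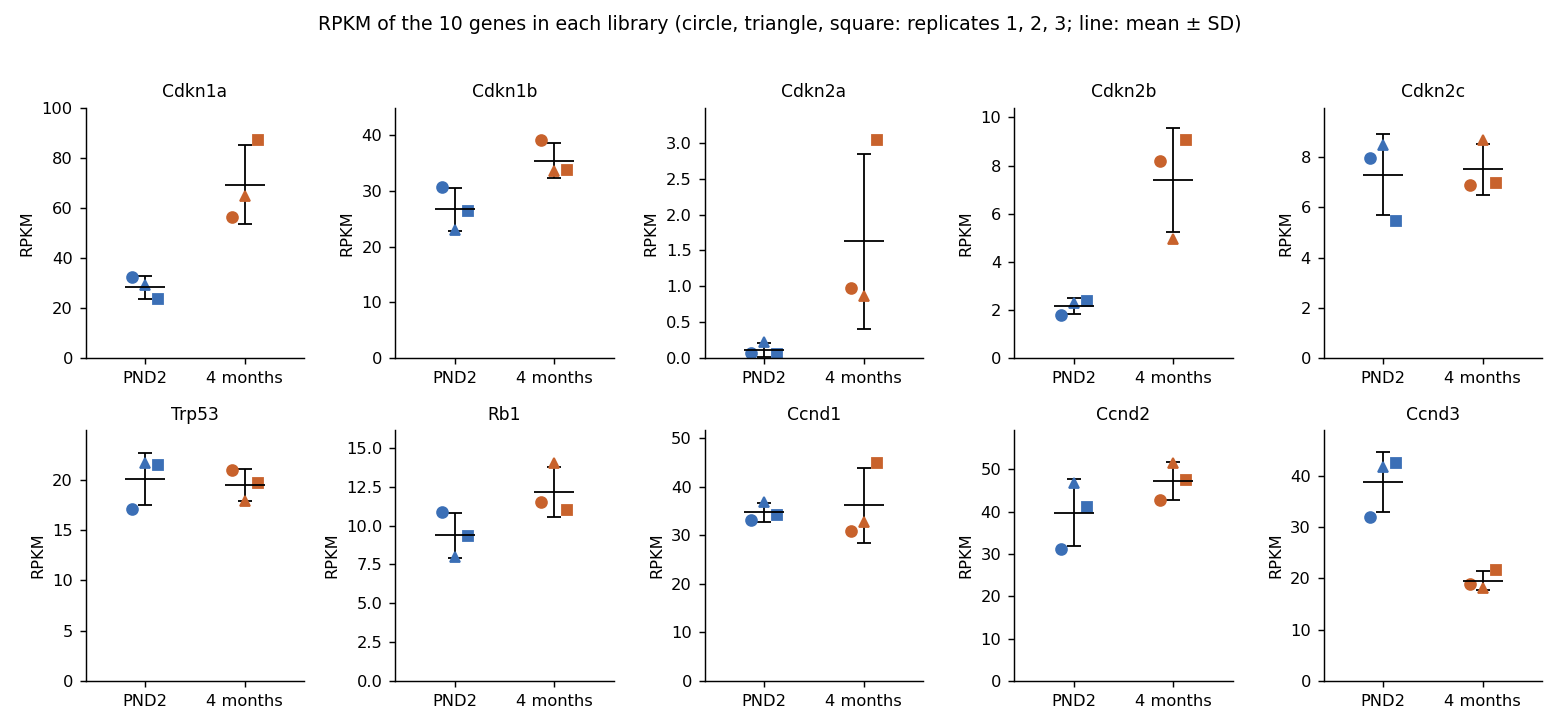
RPKM of each gene in the 3 libraries of PND2 (blue) and the 3 of 4 months (orange), with a black line for the mean and bars for the SD; every axis starts at 0 and has its own scale. Cdkn1a, Cdkn2a and Cdkn2b lie higher and Ccnd3 lower in all 3 libraries of 4 months, while Cdkn2c, Trp53, Ccnd1 and Ccnd2 overlap between the ages.

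Cdkn1a (ENSMUSG00000023067, chr17:29090979-29100722, plus strand) had the highest gene value of the 10 genes at 4 months. Its RPKM was 32.3, 29.1 and 23.4 in the PND2 libraries and 56.4, 64.6 and 87.1 in those of 4 months. Every library of 4 months was above every PND2 library, and the mean went from 28.3 ± 4.49 to 69.4 ± 15.9 (SD, n = 3), a 2.45-fold rise (log2 fold change 1.28, SE 0.186, adjusted p = 0.00222, limma). All 6 of its 6 annotated exons with at least 50 reads on average were higher at 4 months without overlap, by 2.24-fold to 2.60-fold. Of all 160240 such exons 17.0% were. Annotated exons of a gene can overlap, as chr17:29099344-29099527 lies within chr17:29099344-29100722. Such exons share reads, so exon counts here and below are not counts of separate measurements.

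The starts of Cdkn1a differed in how far they moved, a contrast chosen after the values were seen and given without a test. Its upstream first exon (chr17:29090979-29091101), which follows the promoter with the p53 decamers, held 0, 8 and 4 reads at PND2 and 44, 34 and 44 at 4 months. In RPKM the mean of that exon was 1.08 ± 1.07 and 11.2 ± 1.44 (SD, n = 3). The downstream first exon (chr17:29093772-29093861) went from 23.7 ± 8.22 to 52.98 ± 13.8 RPKM. The upstream exon thus made up 0%, 7.82% and 6.98% of the RPKM of both first exons at PND2 and 14.8%, 23.3% and 15.8% at 4 months, with no overlap between the ages, and the downstream start held the larger share in all 6 libraries.

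Cdkn1b (ENSMUSG00000003031, chr6:134920401-134925513, plus strand) encodes p27, an inhibitor of cyclin-CDK2 complexes. RPKM was 30.7, 22.9 and 26.3 at PND2 and 39.1, 33.5 and 33.7 at 4 months. The ages did not overlap, but the highest PND2 library stood close to the lowest of 4 months. The rise was 1.33-fold (log2 fold change 0.42, SE 0.131, adjusted p = 0.0439, limma). Of its 6 exons with at least 50 reads 3 were higher without overlap (17.0% of all such exons were), by 1.38-fold to 1.48-fold. These 3 lie within the same, mostly non-coding stretch (chr6:134921956-134925513) and share reads. The others, which include the coding exons, overlapped between the ages and differed by 1.07-fold to 1.20-fold. The call of Cdkn1b was the least firm of the 5: it was lost in 9 of 17 alternative settings. It was lost when any library other than replicate 1 of PND2 was left out. Over the 17 settings its adjusted p ran from 0.0180 to 0.145.

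The balance within the CIP/KIP pair differed between the ages. Cdkn1a made up 51.3%, 55.9% and 47.1% of the RPKM of Cdkn1a and Cdkn1b at PND2 and 59.1%, 65.8% and 72.1% at 4 months. All libraries of 4 months were above those of PND2, with a difference of 14.3 percentage points between the means (exact permutation test, 2-sided, p = 0.1, n = 3 per age). That is the smallest p that 3 libraries against 3 can give.

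Cdkn1c, which encodes p57 and is the third CIP/KIP inhibitor, went the other way. RPKM was 60.3, 50.6 and 56.0 at PND2 and 22.8, 19.3 and 20.5 at 4 months (log2 fold change -1.41, SE 0.108, adjusted p = 0.000181, limma). The fourth INK4 gene, Cdkn2d, had 24.3, 21.3 and 17.8 at PND2 and 17.6, 15.0 and 14.5 at 4 months and did not pass the test (log2 fold change -0.42, adjusted p = 0.0583). The ages did not overlap for either gene, and at PND2 Cdkn1c stood above each of the 10 genes in mean RPKM.

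Cdkn2b (ENSMUSG00000073802, chr4:89306289-89311032, minus strand) rose from a low level. RPKM was 1.79, 2.31 and 2.38 at PND2 and 8.19, 4.94 and 9.05 at 4 months, which stood on 97, 98 and 97 reads and on 426, 164 and 365 reads. All libraries of 4 months exceeded all PND2 libraries, and replicate 2 was the lowest of its age. The mean rose 3.43-fold (log2 fold change 1.70, SE 0.262, adjusted p = 0.00281, limma). Reads summed over the libraries gave a ratio per total of 3.59 (exact 95% interval 3.14 to 4.10, counting error only). The interval takes every recovered read as independent. Recovered reads are not all separate sequenced reads, so it can be too narrow even for counting error.

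Cdkn2a (ENSMUSG00000044303) had the fewest reads of the 10 genes. There were 3, 8 and 2 reads at PND2 and 43, 24 and 103 at 4 months. In RPKM this was 0.0656, 0.224 and 0.0583 against 0.982, 0.860 and 3.04. The ages did not overlap, and replicate 3 of 4 months held 103 of the 170 adult reads.

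The log2 fold change was 2.86 (SE 0.545, adjusted p = 0.00658, limma), and the ratio of summed reads per total was 14.3 (exact 95% interval 8.16 to 27.5, counting error only). The 2 values differ because adding 0.1 RPKM understates the change of a gene this low. Over the alternative settings the log2 fold change ran from 1.14 with a pseudocount of 1, where those of Cdkn2b (1.38) and Cdkn1a (1.25) were larger, to 3.70 with a pseudocount of 0.01. Without replicate 3 of 4 months the ratio was 8.32 (4.55 to 16.4), and with any single library left out limma's adjusted p ran from 0.00964 to 0.0241. As for Cdkn2b, both intervals of the ratio can be too narrow even for counting error.

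Few of these reads told the products of Cdkn2a apart. The first exon of p16Ink4a (chr4:89281986-89282192) held 0, 3 and 0 reads at PND2 and 0, 1 and 10 at 4 months. The first exon of p19Arf (chr4:89294334-89294653) held 0, 1 and 2 reads and 9, 0 and 2. Both sums were 3 reads at PND2 and 11 at 4 months, in different libraries: 10 of the 11 adult p16Ink4a reads were in replicate 3 and 9 of the 11 adult p19Arf reads in replicate 1. At this depth the share of either product could not be compared between the ages. The exon 2 that both share (chr4:89276645-89276985) held 2, 3 and 0 reads at PND2 and 27, 19 and 64 at 4 months, so most of the reads fell where the products cannot be parted.

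Cdkn2c (ENSMUSG00000028551, chr4:109660876-109667189, minus strand) did not pass the test as a whole gene. RPKM was 7.95, 8.48 and 5.46 at PND2 and 6.87, 8.66 and 6.97 at 4 months, with overlapping ranges (log2 fold change 0.06, SE 0.201, adjusted p = 0.855, limma). Its exons, however, moved in opposite directions, in values that were inspected first and are given without a test. The first exon of the long transcript (chr4:109665610-109667189) had 320, 329 and 183 reads at PND2 and 137, 121 and 121 at 4 months, or 5.33 ± 1.44 and 2.73 ± 0.453 RPKM (SD, n = 3).

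The last exon of Cdkn2c (chr4:109660876-109661626) had 10.02 ± 2.30 RPKM at PND2 and 14.6 ± 1.87 at 4 months, and its values did not overlap either. The long first exon stood at 44.1%, 62.8% and 53.4% of the last exon at PND2 and at 18.0%, 19.4% and 18.5% at 4 months. The 215 bases found only in the first exon of the short transcript had 5.57 ± 2.53 and 8.25 ± 2.63 RPKM, with overlapping ranges. Of 4 Cdkn2c exons with at least 50 reads 1 was thus lower and 1 higher without overlap, where 30.4% and 17.0% of all such exons were. The gene value of Cdkn2c adds its exons.

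**Figure D2:**
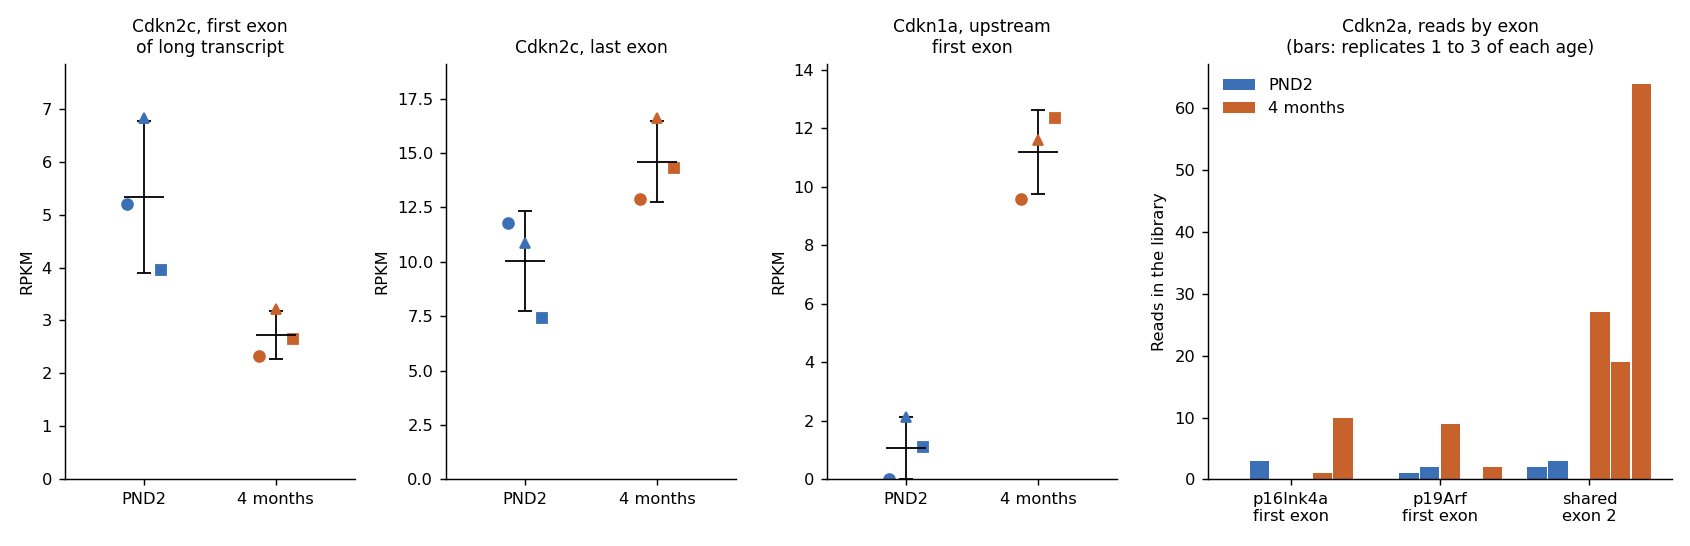
RPKM of the long transcript's first exon and of the last exon of Cdkn2c, RPKM of the upstream first exon of Cdkn1a (points: libraries, line and bars: mean and SD, n = 3), and reads in 3 exons of Cdkn2a (one bar per library, PND2 in blue and 4 months in orange). The Cdkn2c exons differ in direction (5.33 to 2.73 and 10.02 to 14.6 RPKM), the upstream Cdkn1a exon goes from 1.08 to 11.2 RPKM, and the Cdkn2a first exons hold at most 10 reads in a library.

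The shares of Cdkn2a, Cdkn2b and Cdkn2c in their own sum, which leaves out Cdkn2d, differed between the ages. Cdkn2c made up 81.1%, 77.0% and 69.1% of that sum at PND2 and 42.8%, 59.9% and 36.6% at 4 months. Cdkn2b went from 18.2%, 20.9% and 30.1% to 51.1%, 34.2% and 47.5% and held the largest of these shares in replicates 1 and 3 of 4 months. Neither share overlapped between the ages (exact permutation test, 2-sided, p = 0.1 for each, n = 3 per age). Their summed RPKM went from 9.57 ± 1.57 to 16.5 ± 2.34 (SD, n = 3).

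Trp53 (ENSMUSG00000059552, chr11:69580359-69591873, plus strand) did not pass the test. RPKM was 17.0, 21.6 and 21.4 at PND2 and 20.9, 17.8 and 19.7 at 4 months (log2 fold change -0.04, SE 0.129, adjusted p = 0.857, limma). The sign of this small difference turned with median scaling, where it was 0.09. None of its 17 exons with at least 50 reads had ages that did not overlap.

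Rb1 (ENSMUSG00000022105, chr14:73183673-73325822, minus strand) had 10.9, 7.96 and 9.35 RPKM at PND2 and 11.5, 14.0 and 11.0 at 4 months. The ages did not overlap but nearly touched, and the gene did not pass the test (1.30-fold, log2 fold change 0.38, SE 0.160, adjusted p = 0.108, limma). Its exons share 488 bases with Rcbtb2 and 408 with Lpar6, both annotated on the opposite strand. The library kit marked strand, but whether the counting used it is not stated, so reads of such partners may have been counted for Rb1.

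The 2 Rb1 exons that lay lower at 4 months without overlap of the ages, of 14 with at least 50 reads, hold those 408 bases. Another 7 were higher without overlap. Of all such exons 30.4% were lower and 17.0% higher without overlap. On the 5119 exonic bases that touch no other gene Rb1 had 9.70, 7.25 and 8.04 RPKM at PND2 and 11.4, 14.3 and 11.2 at 4 months, a 1.48-fold difference of the means. Lpar6 itself had 7.66, 6.91 and 8.15 RPKM at PND2 and 4.48, 4.56 and 3.81 at 4 months.

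Among the D cyclins Ccnd3 alone passed the test. Ccnd3 (ENSMUSG00000034165, chr17:47505051-47599691, plus strand) had 32.0, 41.7 and 42.5 RPKM at PND2 and 18.9, 18.1 and 21.7 at 4 months. All adult libraries were below all PND2 libraries, and the mean was 1.98-fold lower (log2 fold change -0.98, SE 0.139, adjusted p = 0.00205, limma). Of its 26 exons with at least 50 reads 23 were lower at 4 months without overlap, where 30.4% of all such exons were. Many of these Ccnd3 exons cover the same bases and share reads. It shares 361 exonic bases with Bysl, and without the exons that touch another gene its mean went from 27.6 ± 5.08 to 14.1 ± 1.48 RPKM (SD, n = 3).

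The fall of Ccnd3 separated the ages in the shared part of the gene. A coding exon shared by transcripts of both starts (chr17:47594734-47594949) went from 136 ± 27.7 to 71.3 ± 4.13 RPKM (SD, n = 3). The first exon of the far start (chr17:47505051-47505266) had only 5.28 ± 0.832 and 4.17 ± 0.616 RPKM, with overlapping ranges. The 139 bases particular to the near start had 42.4 ± 17.0 and 24.3 ± 7.20, also with overlapping ranges. Their mean at 4 months was 0.573 times that at PND2, beside 0.523 times for the shared coding exon. These exon values were chosen after they were seen and were not tested.

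Ccnd1 (ENSMUSG00000070348, chr7:144929931-144939869, minus strand) had 33.1, 36.8 and 34.2 RPKM at PND2 and 30.8, 32.7 and 44.9 at 4 months. The adult libraries lay on both sides of those of PND2, and replicate 3 was the highest of all 6 (log2 fold change 0.04, SE 0.151, adjusted p = 0.864, limma). Without that library the log2 fold change was -0.13. None of 7 exons with at least 50 reads separated the ages. Ccnd1 shares 818 exonic bases, 21.3% of its length, with Oraov1 on the opposite strand, and on the exons that touch no other gene its mean was 28.3 ± 5.46 and 27.9 ± 7.66 RPKM (SD, n = 3).

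Ccnd2 (ENSMUSG00000000184, chr6:127125162-127152193, minus strand) had the highest mean of the 10 genes at PND2, in ranges that overlapped those of other genes. RPKM was 31.2, 46.8 and 41.2 at PND2 and 42.6, 51.5 and 47.4 at 4 months. The ranges overlapped, with the lowest value in replicate 1 of PND2 (log2 fold change 0.26, SE 0.160, adjusted p = 0.244, limma). Its exons share 368 bases with 9330179D12Rik and 372 with Gm43126, both antisense genes, and the exons without overlap had 33.8 ± 10.9 and 35.3 ± 3.52 RPKM (SD, n = 3).

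The summed D cyclin RPKM was 96.3, 125 and 118 at PND2 and 92.3, 102 and 114 at 4 months, with overlapping ranges (exact permutation test, 2-sided, p = 0.4, n = 3 per age). This sum and its shares depend on the exonic length annotated for each gene. At PND2 the mean gene values of Ccnd1, Ccnd2 and Ccnd3 were 34.7, 39.7 and 38.7 RPKM. A coding exon of 160 bases in each had 41.6, 66.9 and 135 RPKM at PND2 and 43.4, 77.4 and 62.9 at 4 months. Sums over coding exons were not computed. The make-up of the sum of gene values differed. Ccnd3 held 33.2%, 33.3% and 36.1% of the sum at PND2 and 20.4%, 17.7% and 19.01% at 4 months, with no overlap. Ccnd2 held 32.4%, 37.4% and 34.9% and then 46.2%, 50.3% and 41.6%, also with no overlap (p = 0.1 by the exact permutation test for both, the smallest possible). The Ccnd1 share was 34.3%, 29.4% and 29.0% and then 33.4%, 32.0% and 39.4%, with overlapping ranges and a difference of 4.00 points between the means (exact permutation p = 0.3). From the exon table, weighted by exon length, that share was 26.4%, 22.4% and 21.3% and then 28.1%, 27.8% and 34.3%, with no overlap and a difference of 6.73 points (exact permutation p = 0.1). That average counts bases held by several annotated exons more than once, so it depends on how many exons are annotated.

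Set against the D cyclins of the same library, the inhibitor genes among the 10 summed to a higher level at 4 months. Per 100 RPKM of D cyclins there were 65.5, 41.5 and 42.2 RPKM of Cdkn1a and Cdkn1b at PND2 and 103, 96.0 and 106 at 4 months. For Cdkn2a, Cdkn2b and Cdkn2c the values were 10.2, 8.78 and 6.70 and then 17.4, 14.1 and 16.7. No library of one age reached those of the other in these sums, whose means were 2.05-fold and 1.88-fold higher (exact permutation test, 2-sided, p = 0.1 for each, n = 3 per age). This separation was not seen for the whole families, a sum added after the data were seen. With Cdkn1c added the first ratio was 128, 81.8 and 89.7 at PND2 and 128, 115 and 124 at 4 months, and with Cdkn2d added the second was 35.4, 25.7 and 21.8 and then 36.4, 28.8 and 29.5. Both overlapped between the ages (exact permutation test, 2-sided, p = 0.4 for each, n = 3 per age). Such ratios are taken within a library and do not depend on its total. They do depend on the exonic length annotated for each gene, as do the shares above.

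**Figure D3:**
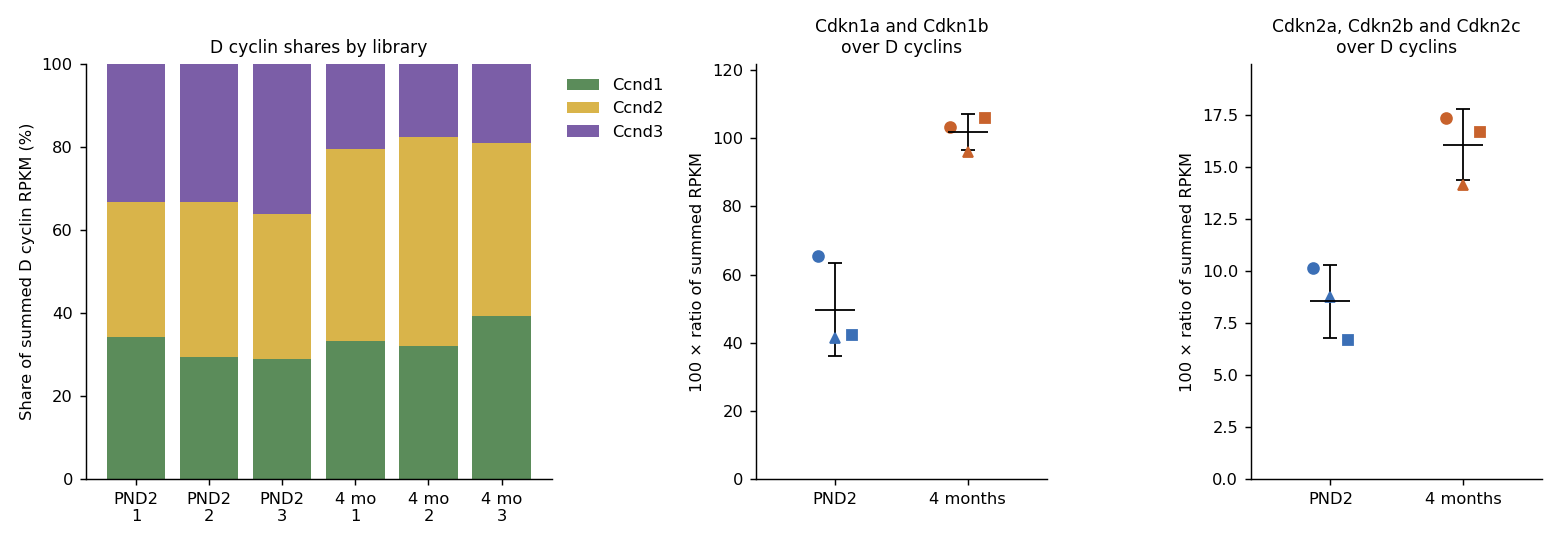
Left, share of Ccnd1, Ccnd2 and Ccnd3 in the summed D cyclin RPKM of each library (bars add to 100%). Middle and right, 100 times the summed RPKM of Cdkn1a and Cdkn1b, and of Cdkn2a, Cdkn2b and Cdkn2c, over that of the D cyclins (points: libraries, line and bars: mean and SD, n = 3 per age); the mean Ccnd3 share is 34.2% at PND2 and 19.04% at 4 months, and both ratios, which leave out Cdkn1c and Cdkn2d, lie higher in all 3 libraries of 4 months.

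The order of the gene values also differed between the ages. By mean RPKM the D cyclins came first at PND2 (Ccnd2, Ccnd3, Ccnd1), followed by Cdkn1a, Cdkn1b, Trp53, Rb1, Cdkn2c, Cdkn2b and Cdkn2a. The ranges of neighbours overlapped from Ccnd2 to Ccnd3 and on to Ccnd1, between Cdkn1a and Cdkn1b, and between Rb1 and Cdkn2c, so those neighbours were not separated. The range of Cdkn1a also overlapped those of Ccnd2 and Ccnd3, since its 32.3 RPKM in replicate 1 stood above their lowest values of 31.2 and 32.0. At 4 months Cdkn1a led, above the ranges of all others, and then came Ccnd2, Ccnd1, Cdkn1b, Ccnd3, Trp53, Rb1, Cdkn2c, Cdkn2b and Cdkn2a. There the ranges of Ccnd2, Ccnd1 and Cdkn1b overlapped from neighbour to neighbour, as did those of Ccnd3 and Trp53 and those of Cdkn2c and Cdkn2b. These ranks hold for gene values over all annotated exons, and single exons can stand in another order. At 4 months 1 coding exon each of Cdkn1a, Ccnd2 and Ccnd3 had means of 70.2, 77.4 and 71.3 RPKM.

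**Figure D4:**
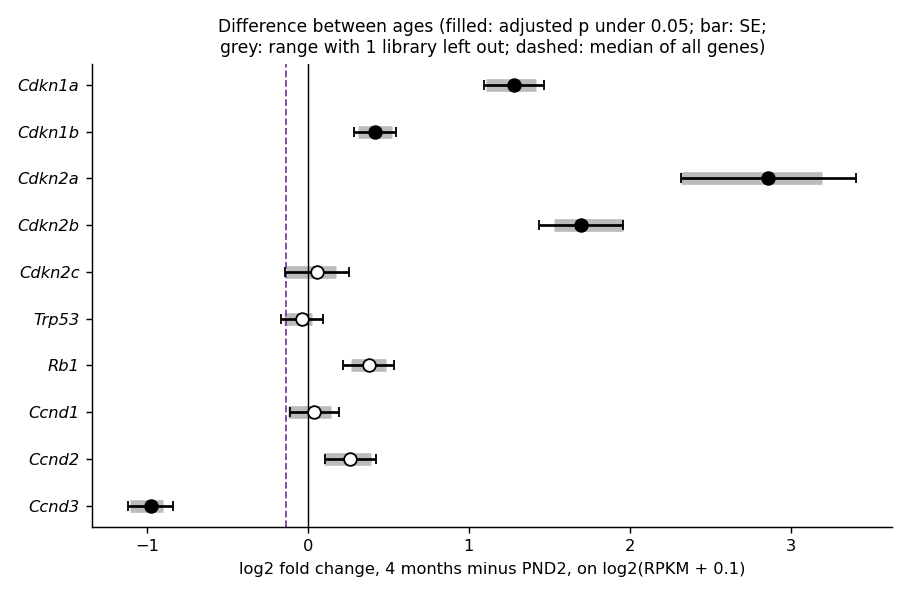
Log2 fold change of each gene (4 months minus PND2, on log2(RPKM + 0.1)) with its SE; filled points have an adjusted p under 0.05, grey bars span the values with 1 library left out, and the dashed line is the median of all tested genes, -0.14. Cdkn2a (2.86), Cdkn2b (1.70), Cdkn1a (1.28) and Ccnd3 (-0.98) stand away from 0 with every library left out, while the grey bars of Cdkn2c, Trp53 and Ccnd1 span 0. The grey bars of Cdkn1b, Rb1 and Ccnd2 also miss 0, though Rb1 and Ccnd2 did not pass the test.

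The partners of these genes in the pathway were counted next. Of 112 other genes of the pathway that could be tested, in 9 lists, 67 were called, 21 higher and 46 lower, against 35.8% of all tested genes. Their median log2 fold change was -0.25, beside -0.14 for all tested genes. Of all tested genes 14.7% were higher and 21.1% lower, the shares beside which each list below stands. Trp73, a relative of Trp53, was too low to be tested, and Mdm2 is counted in 2 lists but once in the total.

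The kinases and cyclins that work with or after the D cyclins, listed with a kinase assembly factor and a phosphatase, were lower or did not pass. Of 10 genes 8 were lower at 4 months and none was higher, with a median log2 fold change of -0.91. Cdk4, the main partner of the D cyclins, fell from 121 ± 11.9 to 68.3 ± 6.45 RPKM (log2 fold change -0.83, adjusted p = 0.00173, limma), and Cdk6 from 8.05 ± 0.839 to 4.08 ± 0.459 (-0.96, adjusted p = 0.00349). The largest falls were those of Ccne1 (-2.56) and Ccna2 (-1.93), cyclins of the G1-S transition and of S phase, and of their kinase Cdk2 (-1.72). Cdk2 had 43.1, 51.2 and 44.7 RPKM at PND2 and 15.8, 12.8 and 13.48 at 4 months, with a wide gap between the ages.

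Of 12 pocket protein, E2F and DP genes 7 were lower and 1 was higher, with a median of -0.86. The relatives of Rb1 moved in opposite directions. Rbl1, which encodes p107, had 4.11, 5.91 and 5.21 RPKM at PND2 and 1.84, 2.19 and 1.70 at 4 months (log2 fold change -1.36, adjusted p = 0.00276, limma). Rbl2, which encodes p130, the pocket protein typical of quiescent cells, had 15.9, 13.4 and 11.8 and then 25.5, 24.9 and 20.01 (0.77, adjusted p = 0.00733). The ages did not overlap for either. E2f8 (-2.20) and E2f7 (-2.11), the atypical repressors, and E2f1 (-1.61), an activator, fell most, from means of 1.63, 1.26 and 8.78 RPKM.

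Of the 7 MuvB and DREAM genes, whose complex with p130 represses cell cycle genes in quiescence, 2 were lower, 1 was higher and 4 did not pass, with a median of -0.15. The share called, 42.9%, and the median were near those of all tested genes (35.8% and -0.14). Mybl2, which takes p130's place on MuvB in dividing cells, fell from 2.15 ± 0.636 to 0.446 ± 0.148 RPKM (log2 fold change -2.03), and the subunit gene Lin9 fell by 1.23 on the log2 scale. The subunit gene Lin52 rose (0.86).

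Around p53, 1 of 15 tested regulator and family genes was higher and 5 were lower, with a median of -0.22. The share called was 40%, near the 35.8% of all tested genes. With median scaling 1 was higher and 2 were lower. Mdm2, the ligase that degrades p53 and is also its target, rose from 20.9 ± 1.43 to 26.6 ± 0.899 RPKM (log2 fold change 0.35, adjusted p = 0.0264, limma). Its partner Mdm4 had 22.7 ± 1.29 and 18.6 ± 1.22 and did not pass (-0.28, adjusted p = 0.0638). The checkpoint kinase genes Chek1 (-2.52) and Atr (-0.78) and the p53 ligase gene Rchy1 (-0.38) had the largest falls.

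The p53 target genes were the list with the most rises: 13 of 24 were higher, 5 lower and 6 did not pass, with a median log2 fold change of 0.41. With median scaling 13 were higher, 3 lower and 8 did not pass. Cdkn1a itself is not counted in this list. Ephx1, an epoxide hydrolase gene, rose from 56.8 ± 3.61 to 233 ± 21.4 RPKM (2.03), the antiproliferative gene Btg2 from 29.4 ± 1.67 to 109.6 ± 25.6 (1.87), and the death receptor gene Fas from 14.2 ± 3.14 to 49.3 ± 5.30 (1.80). The kinase gene Plk2 had 96.6, 116 and 129 RPKM at PND2 and 25.4, 21.9 and 15.9 at 4 months (-2.45). The apoptosome gene Apaf1 (-1.19) and the membrane protein gene Perp (-0.58) also fell.

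Genes that set how long p21, p27 and D cyclin proteins last were counted as well. The list held 15 genes of ubiquitin ligases and of factors that act with them, a kinase among these. Of the 15 genes 8 were lower and 2 higher, with a median of -0.25, and with median scaling 7 were lower and 3 higher. Dtl, the receptor that marks p21 for degradation in S phase, fell from 1.51 ± 0.0864 to 0.145 ± 0.0632 RPKM (-2.75). Cks1b and Skp2, which act together on p27, fell by 1.65 and 0.76 on the log2 scale. Fbxo31, which targets cyclin D1, rose from 7.36 ± 1.32 to 17.8 ± 1.95 RPKM (1.27), and Rnf123, a cytoplasmic ligase for p27, rose (0.44). RNA gives no measure of the proteins' turnover.

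Of 13 genes of the Myc network, which induces D cyclins and represses Cdkn1a and Cdkn2b, 4 were lower and 3 higher, with a median of -0.08 that became 0.04 with median scaling. The share called was 53.8%, beside 35.8% of all tested genes. Mycn (-2.00) and Myc (-1.17) fell, as did Mxd3 (-1.35), whereas the antagonist gene Mxd1 (0.79), Mlx (0.35) and Max (0.30) rose. Myc had 9.91, 14.2 and 11.3 RPKM at PND2 and 5.81, 3.92 and 5.89 at 4 months.

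Regulators of the Cdkn2a and Cdkn2b locus were the last list. Of 15 genes 6 were lower and 1 was higher, with a median of -0.33, and with median scaling 5 were lower and 3 higher. The share called without that scaling was 46.7%, beside 35.8% of all tested genes. Ezh2, the Polycomb methyltransferase that silences this locus in dividing cells, fell from 8.41 ± 1.23 to 2.08 ± 0.320 RPKM (-1.96). The Polycomb subunit genes Pcgf2 (-1.51) and Cbx2 (-1.47) fell too. Cbx7, another Polycomb subunit known to repress Cdkn2a, had 2.45, 2.22 and 2.23 RPKM at PND2 and rose to a mean of 21.4 ± 4.43 at 4 months (SD, n = 3), the largest rise of the 9 lists (3.15, adjusted p = 4.75e-05, limma). The called regulators of the locus thus moved in both directions.

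**Figure D5:**
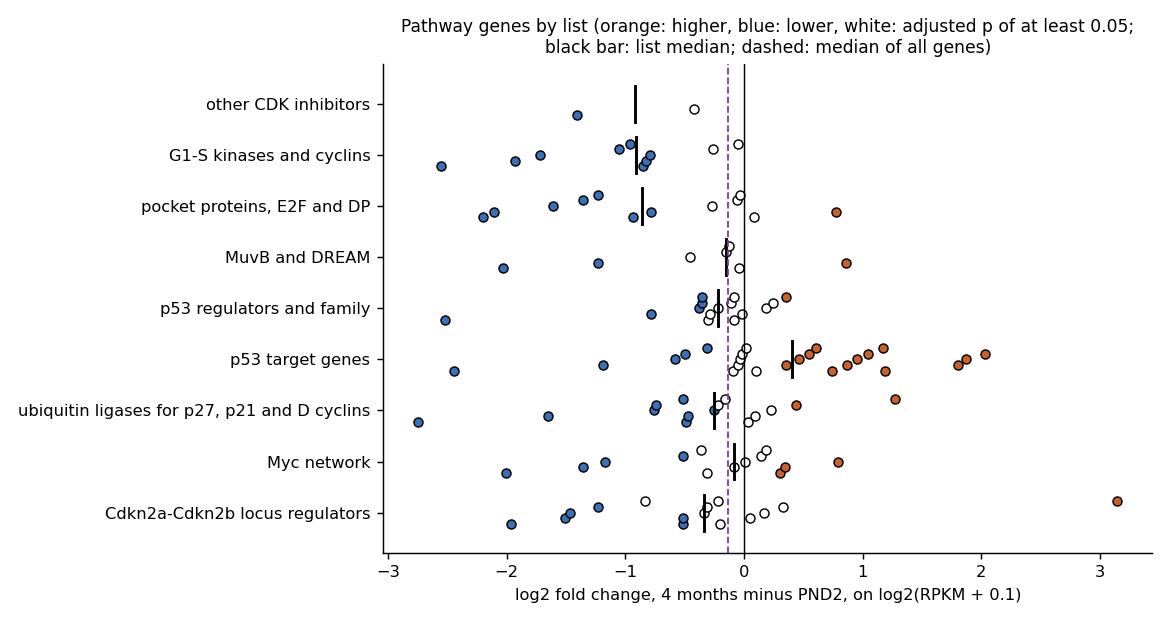
Log2 fold change (4 months minus PND2, on log2(RPKM + 0.1)) of each tested gene in the 9 pathway lists, 1 point per gene, orange where higher and blue where lower at an adjusted p under 0.05 and white otherwise; black bars are list medians and the dashed line is the median of all tested genes. The G1-S and E2F lists lie mostly below 0 (medians -0.91 and -0.86), the p53 target list mostly above it (0.41), and Cbx7 (3.15) stands far to the right.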

How the data were processed

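RNA-seq of 6 libraries, 3 per age, was used. The authors quality-filtered and end-trimmed the reads, mapped these with TopHat2 2.1.0 to mm10 (GRCm38), counted them with easyRNASeq on Ensembl genes and exons, and deposited RPKM values. Groups were taken from the sample labels. Library totals were derived from the RPKM values, by taking the smallest exon value times its length as 1 read. With these totals and the exonic length, whole reads were recovered for 100% of gene values above 0 (tolerance 0.001). Summed over genes they came to 2.31 to 2.36 times the totals. These sums, 55069102 to 90673545 per library, were above the average number of reads per sample that the authors report. Some sequenced reads were therefore counted more than once, and recovered reads are not all separate reads. Whether the totals count reads or pairs is not stated, and whether a read counted at more than 1 gene was not tested. RPKM values are not counts, so limma 3.58.1 (R 4.3.3) was fitted on log2(RPKM + 0.1), moderated by eBayes with a mean trend, across all tested genes, with no covariate. Ratios within a library were compared by exact permutation (Python 3.11.15, scipy 1.17.1). The limma step was tested on simulated data. The 10 genes, the lists and the tests were chosen with earlier results of these data known. All 10 genes are named, and from each list up to 3 of the largest rises and falls past an adjusted p of 0.05, with Cdkn1c, Cdkn2d, Mdm2, Mdm4, Cdk4, Cdk6, Rbl1 and Rbl2 in any case. Same-numbered replicates of the ages did not deviate together (correlations 0.04, -0.06 and -0.16), so the numbers were not used as pairs. Protein sequences were not used here.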

Additional observations from a re-analysis of the deposited data

How the results depend on the processing

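Over 17 alternative settings for each gene (a pseudocount of 1 or of 0.01, no low-value filter, a filter at 1 RPKM, no trend, a per-gene unequal-variance test, median scaling, quantile normalization, a replicate block, values floored at 10 reads, voom on the recovered reads, and each library left out), Cdkn1a and Ccnd3 kept their direction and call, and none of Cdkn2c, Trp53, Rb1, Ccnd1 and Ccnd2 gained one. Cdkn2a, which drops out with a filter at 1 RPKM, and Cdkn2b lost their calls only with the per-gene test (adjusted p = 0.0753 and 0.0645, within ranges of 0.00631 to 0.0753 and 0.00150 to 0.0645). That test called 3408 genes, 1 of the 10 genes as higher (Cdkn1a) and 34 pathway genes. Its variance comes from 6 libraries alone. With single libraries left out, 6301 to 8581 genes, 3 to 4 of the 10 genes as higher, 1 as lower and 49 to 65 pathway genes were called. The log2 fold change of Trp53 changed sign with median scaling (0.086) and quantile normalization (0.040) and ran from -0.15 to 0.026 with a library left out. Those of Cdkn2c and Ccnd1 ran from -0.14 to 0.18 and from -0.13 to 0.14. The cause was not tested. With the replicate block 7167 genes, 4 of the 10 genes as higher, 1 as lower and 51 pathway genes were called, and no call of the 10 genes changed. The exact sign-flip permutation test with the block was run for 4 ratios and gave p = 0.25, the smallest it can give, for the Cdkn1a share and for both inhibitor sums over the D cyclins, and 0.5 for the Ccnd1 share. The exon table, in an average that counts overlapping exons more than once, moved the Ccnd1 share difference from 4.00 to 6.73 points. With Cdkn1c or Cdkn2d in the sums, added after seeing the data, the differences of both ratios went from 52.0 to 22.4 and from 7.53 to 3.91 per 100 D cyclin RPKM. Restricting Rb1, Ccnd1, Ccnd2 and Ccnd3 to exons without overlap was chosen after seeing the data and changed no direction except that of Ccnd1 (1.04-fold before, 0.987 after). Depth limits Cdkn2a most, with 13 reads in all at PND2.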
